A study of Mus musculus with 5 samples.

Results

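In naïve CD8+ T cells, 1768 distal DNase I hypersensitive sites were called in both WT cells and cells lacking Tcf1 and Lef1, but ranked much higher in the WT list than in the dKO list. In DNase-seq, nuclei are digested lightly with DNase I and the short fragments set free from accessible chromatin are sequenced. A WT peak entered this set if it lay on an autosome, overlapped a dKO peak by at least 1 bp, and had its summit more than 1000 bp from every annotated transcription start site (TSS). Each such WT peak was paired with the overlapping dKO peak of highest pileup, where pileup is the number of fragments that cover the summit. The pileup was turned into a percentile within each full list, and pairs were selected on a WT percentile 20 or more points above the dKO percentile. These 1768 sites are 15.6% of the 11351 shared distal pairs, and they came from 31116 WT peaks and 25525 dKO peaks in all. The opposite gap, with dKO 20 or more points above WT, was found in 918 pairs (8.09%), and 8665 pairs had a smaller gap in either direction and are called stable here. When percentiles were taken among the shared distal pairs alone, 1526 pairs ranked higher in WT and 1575 in dKO, so that the balance of the 2 directions rests on the population ranked, while 1505 of the 1768 sites kept their gap. That ranking gives both genotypes the same mean percentile, so it cannot decide which direction is commoner.

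The WT mice carried *hCD2-Cre*, a *Rosa26* GFP allele and intact *Tcf7* and *Lef1* genes, and the dKO mice carried the same Cre and GFP alleles with both alleles of each gene floxed (*Tcf7* fl/fl *Lef1* fl/fl). Per the study's methods the mice were 6 to 12 weeks old, the Cre is most active in mature peripheral T cells, its excision reached 80 to 95%, and GFP+ TCRβ+ CD62L+ CD44 low-to-medium CD8+ T cells were used to select cells in which Cre had acted. Per the labels the cells were sorted from spleen. The deposited lists were called on pools of 3 WT and 2 dKO replicates, so that no value per replicate was used, the spread between mice is unknown and the genotypes were compared without p-values. Depth was 83923734 fragments kept for WT and 62242963 for dKO, and all intervals are 95% intervals that cover counting error only. Promoter peaks within 1 kb of a TSS were present at 9 of 10 T cell marker genes in WT and 8 in dKO, with *Thy1* at none and *Cd3d* in WT only, and at *Cd8a* and *Cd8b1* in both lists. Such peaks were found at none of 3 CD4 and regulatory T cell, 6 B cell or 4 NK cell markers in either list, and at 1 of 6 myeloid markers, *Itgam*, in WT only.

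Tcf1, encoded by *Tcf7*, and Lef1 are HMG-box transcription factors that bind the minor groove of DNA at a short AT-rich core sequence and bend it. They act as end points of Wnt signalling with β-catenin as coactivator and Tle proteins as corepressors, and in T cells they direct thymic lineage commitment, CD8+ T cell identity and the longevity of naïve and memory cells. Distal hypersensitive sites are mostly enhancers, silencers and insulators, which act on genes over a distance.

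The sequences shown first are those of sites with the Tcf/Lef core ATCAAAG, or its reverse complement CTTTGAT, close to the WT summit. The core lay within 20 bp of the summit in 21 of the 1768 sites, and in 10 of these it read ATCAAAG on the plus strand. The 8 of these with the largest percentile gap whose window touched no annotated UTR are printed here. Each line holds 101 bp, 50 bp on either side of the summit, from the plus strand of the mm9 genome (NCBIM37), and capitals mark the core. The *Phlda1* window is chr10:111015787-111015887, and that of *2010111I01Rik* is chr13:63324886-63324986. The *Rpl21-ps10* window is chr3:38179260-38179360, and the *Iqgap2* window is chr13:96483008-96483108. Those of *Uggt1* and *Atp1b3* are chr1:36217230-36217330 and chr9:96295402-96295502. Those of *Gm6721* and *Pgpep1l* are chr10:85291865-85291965 and chr7:75430836-75430936.
Phlda1: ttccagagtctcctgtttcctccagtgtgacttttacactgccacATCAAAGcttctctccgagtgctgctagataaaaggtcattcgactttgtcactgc
2010111I01Rik: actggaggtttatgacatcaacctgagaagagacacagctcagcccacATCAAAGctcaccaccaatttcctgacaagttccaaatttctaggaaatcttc
Rpl21-ps10: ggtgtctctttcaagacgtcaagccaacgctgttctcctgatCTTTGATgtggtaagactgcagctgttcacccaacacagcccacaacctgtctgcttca
Iqgap2: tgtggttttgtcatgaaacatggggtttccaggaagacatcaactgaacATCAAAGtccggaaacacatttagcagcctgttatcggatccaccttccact
Uggt1: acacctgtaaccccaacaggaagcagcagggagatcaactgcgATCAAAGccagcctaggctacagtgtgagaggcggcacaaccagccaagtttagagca
Atp1b3: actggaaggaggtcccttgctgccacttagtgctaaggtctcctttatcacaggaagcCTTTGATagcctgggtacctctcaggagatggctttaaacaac
Gm6721: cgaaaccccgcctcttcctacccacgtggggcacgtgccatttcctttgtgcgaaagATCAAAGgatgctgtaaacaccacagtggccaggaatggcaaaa
Pgpep1l: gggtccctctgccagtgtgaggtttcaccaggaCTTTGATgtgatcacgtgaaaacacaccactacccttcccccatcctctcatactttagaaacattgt

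The *Phlda1* site, 72.5 kb downstream of the TSS of a gene that is induced by T cell receptor signals, had a pileup of 111 in WT and 17 in dKO. The intronic *2010111I01Rik* site had 87 and 24, and the site nearest to *Rpl21-ps10*, in an intergenic region, had 121 and 37. The site in intron 12 of *Iqgap2*, a Ras GTPase-activating-like scaffold protein, had 74 and 27. The *Uggt1* site lay in intron 31 of this folding sensor of the endoplasmic reticulum, with 64 and 24. Upstream of *Atp1b3*, which encodes a β subunit of the sodium pump, the pileup was 78 in WT and 31 in dKO, and at *Gm6721* and *Pgpep1l* it was 49 and 18, and 100 and 39. Scaled to the fragments kept in each pool, the WT pileup of these 8 sites was higher by 1.87-fold (*Atp1b3*, counting interval 1.22–2.93) to 4.84-fold (*Phlda1*, 2.89–8.61).

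Most of the sites lacked the core, and the 3 strongest without it whose windows touch no annotated UTR are shown for contrast, in the same format. Capitals here mark a RUNX sequence (TGTGGTT) or an ETS sequence (AGGAAGT), of which only 1 RUNX match was found. The windows are chr6:146029720-146029820 for *Itpr2*, chr5:149892177-149892277 for *Hmgb1* and chr10:60696016-60696116 for *Adamts14*. The shorter letters TCAAAG occurred 2 times in the *Itpr2* window, 1 time in the *Adamts14* window and 0 times in the *Hmgb1* window.
Itpr2: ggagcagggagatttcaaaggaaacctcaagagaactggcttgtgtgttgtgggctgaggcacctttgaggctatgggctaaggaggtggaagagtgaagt
Hmgb1: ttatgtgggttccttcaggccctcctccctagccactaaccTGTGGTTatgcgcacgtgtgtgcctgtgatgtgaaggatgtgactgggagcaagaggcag
Adamts14: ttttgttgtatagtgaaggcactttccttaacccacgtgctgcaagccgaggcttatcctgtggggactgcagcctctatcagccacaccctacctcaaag

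The sites were of middling strength in WT and weak in dKO, values that the selection used and that are given as a description. The WT pileup ran from 34 to 185 fragments with a median of 63, and the dKO pileup from 13 to 59 with a median of 30. In percentiles, the medians were 59.3 in the WT list and 27.5 in the dKO list. Neither list's strongest shared distal sites entered the set, since the stable pairs reached pileups of 7660 in WT and 6365 in dKO. The gap had a median of 28.6 points (quartiles 23.9 and 36.0) and reached 85.4 points. It lay between 20 and 30 points in 1001 sites (56.6%), between 30 and 40 points in 458 (25.9%), between 40 and 50 points in 183 (10.4%) and at 50 points or more in 126 (7.13%). Over all shared distal pairs the median gap was 2.91 points.

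**Figure D1:**
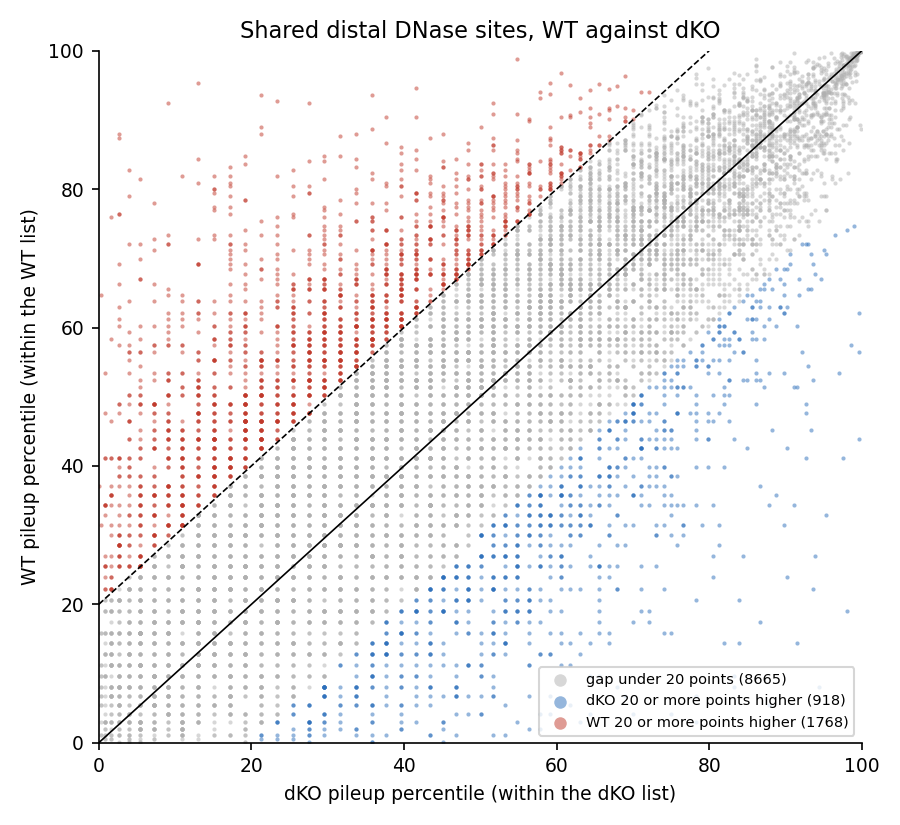
Each point is 1 of the 11351 shared distal pairs, with its pileup percentile in the dKO list on the x axis and in the WT list on the y axis, the diagonal as a solid line and the 20-point threshold as a dashed line. The 1768 selected sites (red) lie above the dashed line by construction, mostly close to it, and only 126 of them have a gap of 50 points or more.

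Per 1000000 fragments kept, the median pileup of the selected sites was 0.751 in WT and 0.482 in dKO, and the median log2 ratio of the depth-scaled pileup was 0.63 (range 0.36 to 2.30). The stable pairs had a median log2 ratio of 0.00. In a pool of cells, a lower signal in every cell and a signal lost from some of the cells cannot be told apart. The ratio reached 2-fold in 229 of the 1768 sites (13.0%). Every site had a ratio above 1 by the way the sites were chosen, and the exact counting interval of the ratio lay above 1 at 829 of them (46.9%), which describes the depth of a single site and tests nothing. Fold enrichment is the pileup divided by the local background, so that its direction was largely fixed by the selection. As a description, its medians were 9.59 in WT and 6.39 in dKO, and it was lower in dKO at 1760 sites. Of the 8 exceptions, 3 were sites near *Ccr7*, for example chr11:99029455-99029750 with a fold enrichment of 5.84 in WT and 7.02 in dKO. At these 3 the local background differed between the pools by at least as much as the pileup did.

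The peaks were also narrower in the dKO list. The median width was 224 bp in WT and 155 bp in dKO, and the dKO peak was the narrower one in 1471 of the 1768 sites (83.2%), against 57.2% of stable pairs and 28.9% of pairs ranking higher in dKO. Width follows from where the signal passes the caller's threshold and is not independent of pileup. WT and dKO summits lay a median of 12 bp apart, and in 107 sites more than 100 bp apart. The dKO peak met the study's criteria for an accessible site (fold enrichment of at least 4 and q under 0.05) in 1671 of the 1768 sites, and the WT peak in 1765. Over all 11351 shared distal pairs, the dKO peak met them in 11008 and the WT peak in 10821.

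The Tcf/Lef core was more frequent among these sites than among either comparison set. ATCAAAG on either strand lay within 100 bp of the WT summit in 123 of 1768 sites (6.96%, Wilson interval 5.86–8.24%). It was found in 255 of 8665 stable pairs (2.94%, 2.61–3.32%), in 21 of 918 pairs ranking higher in dKO (2.29%, 1.5–3.47%) and in 3.52% of all shared distal pairs. The interval of the selected sites did not overlap that of either other set. Most of the sites ranking higher in WT held no exact core in this window, and more stable pairs than selected sites held one in absolute numbers, 255 against 123. The shorter and commoner letters TCAAAG, which lie within the core and so overlap every core match, were found in 21.0% of the sites (19.2–23%), in 15% of stable pairs (14.3–15.8%) and in 13.6% of pairs ranking higher in dKO (11.5–16.0%).

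Among the selected sites, the core was the more frequent the larger the gap. It was present in 4.70% of sites with a gap of 20 to 30 points (3.55–6.19%) and in 8.30% at 30 to 40 points (6.10–11.2%). The share was 11.5% at 40 to 50 points (7.63–16.9%) and 13.5% at 50 points or more (8.60–20.5%), where it rests on 17 of 126 sites. The intervals of neighbouring bins overlap, whereas those of the first and the last bin do not. Below the 20-point threshold the share stayed between 1.77% and 3.56% in all 7 bins. It was 3.38% below -40 points, on 5 of 148 pairs. From there it mostly rose, from 1.77% at -40 to -30 points (0.690–4.46%) to 3.56% at 10 to 20 points (2.83–4.47%), with 2.65% at 0 to 10 points as the exception. The interval at 10 to 20 points overlaps that at 20 to 30 points, so that no step at the threshold is shown. The letters AGGGGGC, part of the sequence bound by the insulator protein CTCF, ran the other way within the selected sites, from 10.9% at 20 to 30 points (9.11–13.0%) to 1.59% at 50 points or more (0.436–5.6%, 2 of 126 sites). Toward dKO the CTCF share was lower as well, with 9.60% at 0 to 10 points and 3.38% below -40 points. It was thus low at large gaps in either direction.

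**Figure D2:**
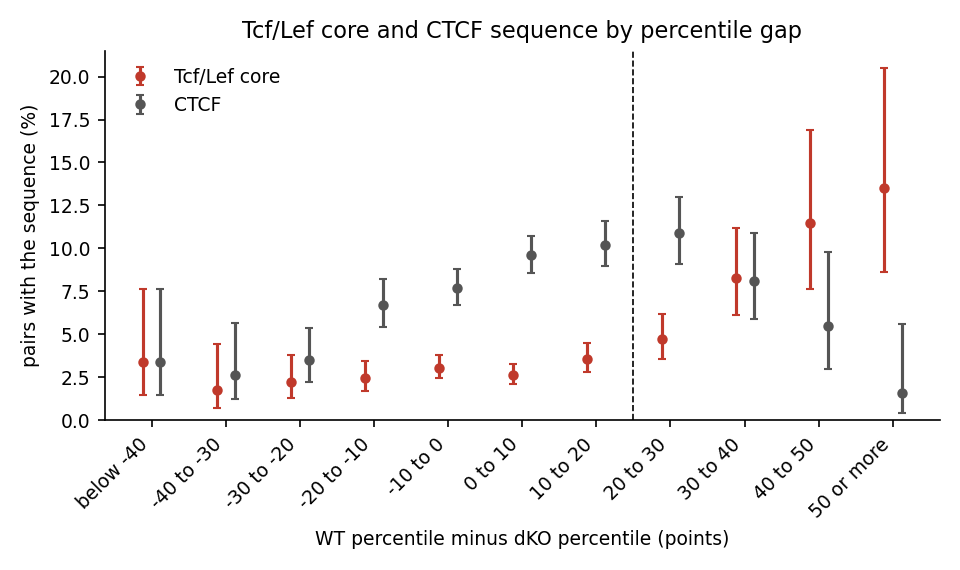
The y axis gives the percentage of pairs with the Tcf/Lef core (red) or the CTCF sequence (grey) within 100 bp of the WT summit, the x axis the difference between WT and dKO percentile in points, and bars are 95% Wilson intervals over sites. Right of the dashed line, which marks the threshold of 20 points, the core goes from 4.70% to 13.5% of pairs and the CTCF sequence from 10.9% to 1.59%.

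The core was also more frequent among the selected sites in most strata of WT peak strength and of base composition. The shared distal pairs were cut into 5 equal strata by WT pileup percentile. In the strongest stratum, 13.2% of selected sites held the core (38 of 287, 9.80–17.7%) and 3.15% of stable pairs (2.47–4.02%). In stratum 4 the shares were 6.99% (5.07–9.56%) and 2.85% (2.15–3.77%). In strata 2 and 3 they were 5.18% against 2.86% and 4.85% against 3.34%, with overlapping intervals, and the weakest stratum held only 36 selected sites, 3 of them with the core. In the stratum of lowest GC content the shares were 12% and 4.12%, and in that of highest GC content they were 2.37% and 1.37%. The intervals overlapped in the latter and in none of the other 4 GC strata. The median GC content of the 201 bp was 50.7% for the selected sites, 49.8% for stable pairs and 48.3% for pairs ranking higher in dKO.

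Within the selected sites, the pileups of those with and without the core are given as a description, since the rule used these values. The median gap was 33.7 points for the 123 sites with the core and 28.3 points for the 1645 sites without it, and the median log2 ratio was 0.77 and 0.62. Median pileups were 69 and 62 fragments in WT and 30 and 29 in dKO, all of them bound by the selection on the gap. A gap of 50 points or more was found in 13.8% of sites with the core and 6.63% of sites without it. The core was not concentrated at the summit, with a median distance of 53 bp in the selected sites and 50 bp in the stable pairs, yet 1.19% of all selected sites and 0.404% of stable pairs had it within 20 bp. Only 4 of the 1768 sites had more than 1 copy, and the share of copies followed by G, as in the longer consensus, was 26.6% (19.7–34.8%) against 29.0% (23.8–34.8%) in stable pairs.

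Other factor sequences set the selected sites apart from the pairs ranking higher in dKO more than from the stable pairs. The RUNX sequence TGTGGTT, bound by Runx1 and Runx3, was found in 13.9% of the selected sites (12.3–15.5%), in 13.8% of stable pairs (13.1–14.5%) and in 26.0% of pairs ranking higher in dKO (23.3–29.0%). AGATAA, bound by GATA factors such as Gata3, was found in 6.45% of the selected sites (5.39–7.69%), 8.22% of stable pairs (7.66–8.81%) and 12% of pairs ranking higher in dKO. The selected sites thus held fewer GATA matches than pairs ranking higher in dKO, with a small difference from stable pairs whose intervals just met. AP-1 (TGANTCA) was found in 7.41%, 8.21% and 12.1% of the 3 sets, and IRF (AANNGAAAC) in 6.39%, 7.72% and 9.26%. For CTCF the low set was that ranking higher in dKO, with 3.27% (2.30–4.63%) against 8.94% of the selected sites (7.69–10.4%) and 8.77% of stable pairs.

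For the other sequences the intervals of selected sites and stable pairs overlapped. ETS (AGGAAGT) was found in 20.6% of the selected sites (18.8–22.5%) and 18.8% of stable pairs (18–19.7%), the E-box CAGGTG of the E proteins in 20.5% (18.7–22.5%) and 18.4% (17.6–19.3%), and KLF/SP (GGGNGGG) in 24.9% (22.9–27.0%) and 22.5% (21.6–23.4%). In pairs ranking higher in dKO, ETS was found in 24.1% (21.4–26.9%), the E-box in 15.6% (13.4–18.1%) and KLF/SP in 22.3% (19.8–25.1%). Of these, only the E-box interval did not overlap that of the selected sites. The T-box sequence AGGTGTGA was rare in all sets, at 1.13%, 1.2% and 1.31%. All letters were searched on both strands. A match is a description of the letters present, not of a bound site.

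**Figure D3:**
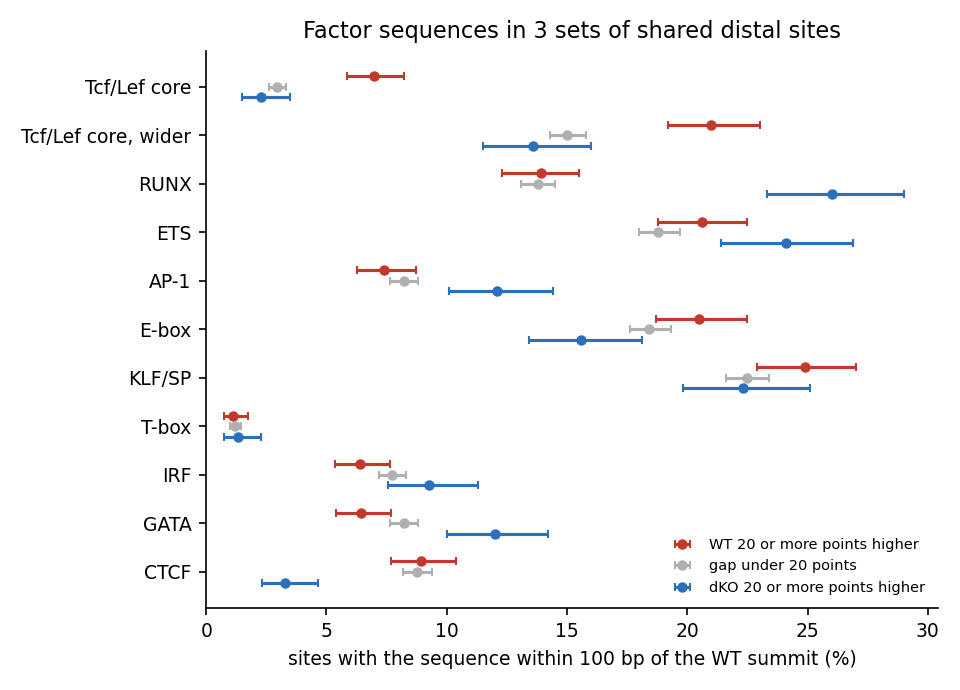
The x axis gives the percentage of sites with each factor sequence within 100 bp of the WT summit, for the 1768 sites ranking higher in WT (red), the 8665 stable pairs (grey) and the 918 pairs ranking higher in dKO (blue), with 95% Wilson intervals as bars. Both Tcf/Lef entries stand higher in the red set than in the other two, and the RUNX, GATA and AP-1 entries stand higher in the blue set.

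The sites lay slightly more often inside genes than the other shared distal sites. The summit was in the body of a protein-coding gene in 905 of 1768 sites (51.2%, 48.9–53.5%), in 45.9% of stable pairs (44.8–46.9%) and in 45.3% of pairs ranking higher in dKO (42.1–48.5%). With fold enrichment ranked in place of pileup the share of members in genes was 48.3%. Of the 905, 819 were intronic and 86 exonic, 43 of the latter in an exon's UTR. The median distance to the nearest TSS was 12462 bp. A TSS was within 10 kb of 43.0% of the sites, of 43.8% of stable pairs and of 35.8% of pairs ranking higher in dKO, and 12.6%, 12.4% and 17.8% lay over 50 kb from every TSS. By chromosome, the selected sites made up between 12.9% (chromosome 14) and 19.7% (chromosome 11, 141 of 715) of the shared distal pairs.

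Sites of one direction tended to have neighbours of that direction. Another site of the set lay within 50 kb of 30.3% of the selected sites (28.2–32.5%), of 26.3% of stable pairs and of 22.1% of pairs ranking higher in dKO. A pair ranking higher in dKO lay within 50 kb of 12.4% of the selected sites (11.0–14.1%), of 16.1% of stable pairs and of 21.4% of the pairs ranking higher in dKO themselves. Peaks of the dKO list with no WT counterpart were within 50 kb of 35.5% of the selected sites (33.3–37.7%) and of 41.1% of stable pairs (40.1–42.2%), and WT peaks with no dKO counterpart within 50 kb of 71.0% (68.8–73.1%) and 67.8% (66.8–68.8%). Linking sites less than 50 kb apart gave 234 runs of 2 or more, which held 536 of the 1768 sites.

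The longest run lay around *Ccr7*, the chemokine receptor that guides naïve T cells into lymph nodes. It held 6 of the 10 shared distal pairs between the first and last member (chr11:98977283-99032579), with 3 stable pairs, 1 ranking higher in dKO and no core. Runs of 4 were found in *Akap2* (4 of 4 pairs), at the *Gimap9*, *Gimap1* and *Gimap3* GTPase genes of lymphocyte survival (4 of 9), at *Cd6* (4 of 5) and at *Rap1b* (4 of 6). Others were at *Il4ra* and *Il21r*, 2 cytokine receptor genes (4 of 8), and at *2410066E13Rik* and *Znrf2* (4 of 4). The 3 pairs upstream of *Tgfbr2* (chr9:116123541-116203502) were all members, with gaps of 31.8 to 76.0 points. These runs were found by counting members, so their high shares are a description.

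By gene, named after the host gene of the summit or else the nearest TSS, the sites belonged to 1434 genes, of which 1189 had 1 site, 181 had 2 and 64 had 3 or more. *Bach2*, a repressor that restrains effector differentiation, had 8 members among 17 pairs, with 8 stable and 1 ranking higher in dKO. Its members ran from chr4:32213768 to chr4:32675569, 4 of them within introns and 4 outside the gene, with gaps of 21.3 to 70.9 points and no core. The largest difference there was in intron 4 (chr4:32647301-32647607), with a pileup of 97 in WT and 22 in dKO, and the next in intron 1 (chr4:32378398-32378788) with 96 and 31. The other 6 *Bach2* members had WT pileups of 38 to 86 and dKO pileups of 20 to 44.

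*Akap2*, which anchors protein kinase A, had 6 members among 7 pairs, all in introns, and *Ccr7* had 5 among 9, all outside the gene. At *Akap2* the pileups were 34 and 16, 79 and 21, 104 and 50, 58 and 30, 91 and 29, and 55 and 27 in WT and dKO, in order along the gene. Per 1000000 fragments kept, these 6 sites ranged from 0.405 to 1.24 in WT and from 0.257 to 0.803 in dKO, so that the ranges overlapped. At *Ccr7* they were 62 and 30, 82 and 41, 75 and 34, 83 and 38, and 129 and 21, so that the last site, the farthest upstream of the TSS, had both the highest WT and the lowest dKO value. *Fli1*, an ETS factor gene, had 4 members and as many pairs ranking higher in dKO among 14 pairs, and so showed no single direction. The annotated model *Gm20388* also named 8 members of 31 pairs, but it spans 4435 kb of chromosome 8 and many other genes, so that its count says little of a single locus.

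The 10 sites with the largest gap are by that choice high in the WT list and low in the dKO list, with WT percentiles of 75.9 to 95.4 and dKO percentiles of 1.60 to 13.0. The largest gap was 9.22 kb upstream of *Thrap3*, a splicing and transcription coactivator gene (chr4:125889149-125889417). Its pileup was 113 in WT, at percentile 88.0, and 17 in dKO, at percentile 2.67, a depth-scaled ratio of 4.93 (2.95–8.76). The *Phlda1* site followed with a gap of 84.7 points. WT and dKO summits lay 14 bp apart at *Thrap3* but 136 bp apart at *Phlda1*, where the dKO peak thus had its maximum away from the core.

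The site 15.9 kb upstream of *Ccr7* (chr11:99032077-99032579) had a pileup of 129 in WT and 21 in dKO, a ratio of 4.56 (2.86–7.61), with its summits 181 bp apart. Intron 4 of *Adamts14*, a procollagen peptidase (chr10:60695791-60696281), held 144 and 23, a ratio of 4.64 (2.98–7.56). Intron 7 of the proton pump subunit gene *Atp6v1e1* (chr6:120749670-120750199) held 99 and 18. In all 3 the WT peak was much wider than the dKO peak, with widths of 503, 491 and 530 bp in WT and 227, 211 and 204 bp in dKO. *Tgfbr2*, a TGFβ receptor that restrains T cell activation, had a site 119 kb upstream of its TSS (chr9:116203258-116203502) with 96 and 19.

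The other sites among these 10 were 11.4 kb upstream of the Golgi complex gene *Cog2* (91 and 18), in intron 2 of *Ranbp9* (85 and 16), 27.8 kb downstream of the TSS of *5730508B09Rik* (86 and 17, with summits 310 bp apart) and in intron 1 of *Tox* (86 and 17). *Tox* encodes an HMG-box factor of T cell development, and its site (chr4:6897625-6898005) went with percentiles of 76.4 for WT and 2.67 for dKO. Of the 10 sites, only that of *Phlda1* had the core within 100 bp of the summit. All 10 kept a gap of 20 points or more when fold enrichment was ranked in place of pileup, with gaps of 57.9 to 87.9 points.

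The 10 sites with the highest WT pileup had dKO pileups of 37 to 56, apart from *Adamts14*, which was the only gene in both groups of 10. The strongest was in intron 1 of *Plcxd2*, a phospholipase-domain gene (chr16:46006416-46006702), with a pileup of 185 in WT and 45 in dKO, a ratio of 3.05 (2.19–4.32), and the core 68 bp from its summit. *Itpr2*, a calcium channel of the endoplasmic reticulum, had a site 66.0 kb from its TSS with 155 and 49, and the site 27.1 kb upstream of *Hmgb1*, a chromatin protein gene, had 151 and 56.

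Further sites in this group were *Gramd3* (144 and 48), intron 8 of *Strada*, a partner of the kinase Lkb1 (143 and 53), and the region 19.7 kb upstream of *Cxcr4*, the receptor for Cxcl12 (142 and 50, chr1:130508463-130508786). Then came intron 2 of *Gphn* (141 and 55), intron 2 of *BC004004* (140 and 37, ratio 2.81, 1.94–4.15) and intron 2 of the ceramidase gene *Acer2* (139 and 54). Ranked by fold enrichment, 8 of these 10 kept a gap of 20 points, and *Hmgb1* and *Gphn* had gaps of 12.6 and 14.5 points.

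**Figure D4:**
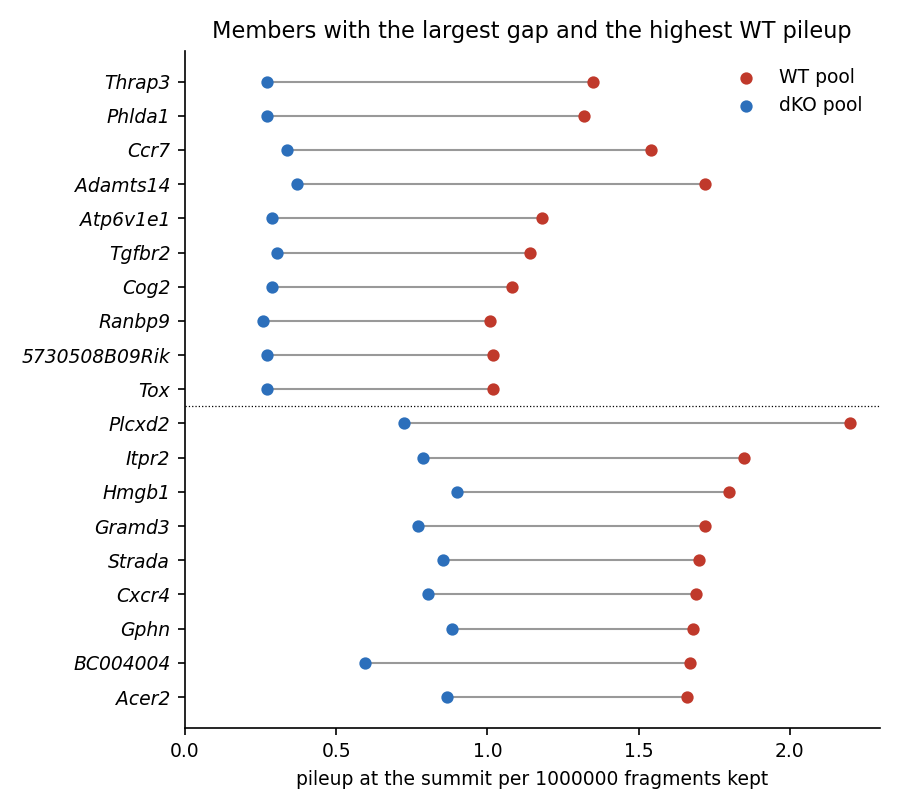
The x axis gives the pileup at the summit per 1000000 fragments kept in the WT pool (red) and in the dKO pool (blue) for the 10 sites with the largest percentile gap (above the dotted line) and the sites with the highest WT pileup (below it, *Adamts14* drawn once, above), named by gene. The dKO values of the upper group lie between 0.257 and 0.370, and those of the lower group between 0.594 and 0.900.

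At the threshold the differences were small. Members just inside it were in intron 1 of *Cdyl2* (120 and 57, percentiles 90.1 and 70.0), and in intron 3 of *Soat1*, with 36 and 19. Just outside it were sites at *3110018I06Rik* and *Gm7697*, both with 35 and 18, and in intron 1 of *Rras2* with 44 and 25. The ratio at *Cdyl2* was 1.56 (1.13–2.18), while at *Soat1* it was 1.41 with an interval of 0.785 to 2.59 that holds 1.

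The sites were next counted near the genes of 9 lists, a site being linked to a gene if its summit lay in the gene body or up to 50 kb upstream of it. Among all shared distal pairs 15.6% were members, and the counts are read against that share. Of the pairs linked to 24 T cell identity factors, 28 of 124 were members (22.6%, 16.1–30.7%), at 16 of the genes, and the median gap of the linked pairs was 5.79 points against 2.91 over all pairs. For naïve T cell homing, survival and quiescence the count was 15 of 65 (23.1%, 14.5–34.6%), at 9 of 22 genes, with a median gap of 3.49 points. For the T cell receptor complex and its signalling it was 26 of 122 (21.3%, 15–29.4%), at 15 of 30 genes, with a median gap of 5.2 points. Only the interval of the first list lay above 15.6%, and narrowly so.

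Among the identity factors, the largest gap after those of *Tox* and *Bach2* was in intron 1 of *Fli1* (chr9:32325992-32326199), with a pileup of 78 in WT and 20 in dKO. *Lef1* itself held a member in intron 8 (chr3:130902571-130903104), with 72 and 19 and the core 22 bp from the WT summit. This gene was deleted in part in the dKO cells and the deleted exons are not given in the sources used here, so that lost DNA and lost accessibility cannot be told apart at this site, where the WT and dKO summits lay 390 bp apart. A further *Lef1* member, 173 kb upstream of the TSS (98 and 43), and a *Tcf7* member, 26.5 kb upstream of the TSS with the core 91 bp from its summit (65 and 36), lay outside both genes.

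Of the homing and quiescence genes, *Ccr7* led with the site 15.9 kb upstream of its TSS. A member linked to the antiproliferative gene *Btg2*, with *Gm8618* as the gene of the nearest TSS, was 52.7 points apart (76 and 25, chr1:136003436-136003577). *Cxcr4* had a member 10.5 kb upstream (78 and 33), and *Itga4*, the α4 integrin gene, had one in intron 2 (66 and 29). No member linked to this list held the core. Of the receptor signalling genes, *Prkcq*, which encodes protein kinase C θ, had 92 and 24 in intron 1 (chr2:11116643-11116941). A site linked to *Cd3d* lay in intron 4 of *Ube4a* (61 and 20) with the core 50 bp from its summit, the phosphatase gene *Ubash3b* had 109 and 35, and a site linked to *Cd5* had 68 and 26.

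The share of members was close to the background in 2 lists. It was 7 of 44 (15.9%, 7.93–29.4%) for effector and cytotoxic genes and 12 of 75 (16.0%) for cytokine receptors and STAT signalling. The effector members with the largest gaps were upstream of *Prdm1*, the gene of the effector regulator Blimp-1 (79 and 19, chr10:44202932-44203192), and upstream of *Klrc1*, an NKG2 receptor gene (60 and 18). The *Prdm1* site lay 24.6 kb upstream of the nearest *Prdm1* TSS, and in intron 1 of the transcript model Prdm1-003. The paper describes a Tcf1-bound site at about this distance upstream that lost accessibility in dKO cells. In naïve CD8+ T cells of mice with that element mutated, the paper measured more *Prdm1* RNA than in WT cells by RT-PCR. It proposes that the element represses *Prdm1*. Next came intron 7 of the interleukin 12 receptor gene *Il12rb2* (94 and 36) and a site linked to the chemokine receptor gene *Cx3cr1* (63 and 27). Although single members were thus found at effector genes, the median gap of the pairs linked to that list was -1.18 points.

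Among cytokine and STAT genes the leading members were in introns of *Jak1* (94 and 29, with the core 68 bp from the summit), *Stat3* (69 and 25) and *Stat4* (109 and 41), and 39.2 kb upstream of *Tgfbr2* (80 and 34). For inhibitory receptors and exhaustion the count was 4 of 38 (10.5%, 4 of 14 genes). These 4 members were linked to *Nr4a3* (104 and 31), *Pdcd1*, which encodes PD-1 (46 and 18), *Havcr2*, which encodes Tim-3 (56 and 29), and *Nfatc1* (102 and 47). The TSS nearest to the site linked to *Havcr2* was that of *Med7*. For Wnt pathway partners and targets the count was 8 of 33 (24.2%, 12.8–41.0%). The member linked to *Pygo1* lay in intron 12 of *Prtg* (80 and 24). Others were at the β-catenin scaffold gene *Axin1* (81 and 32), the coactivator gene *Bcl9l* (66 and 29, and 54 and 24) and, after these, the related factor gene *Tcf7l2* (120 and 46, with the core 85 bp from the summit).

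Genes of other lineages had few linked pairs. For the B lineage 1 of 19 was a member, in intron 5 of *Pou2f2* (64 and 30), and for myeloid and progenitor genes 1 of 11, in intron 8 of *Mef2c* (51 and 26).

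**Figure D5:**
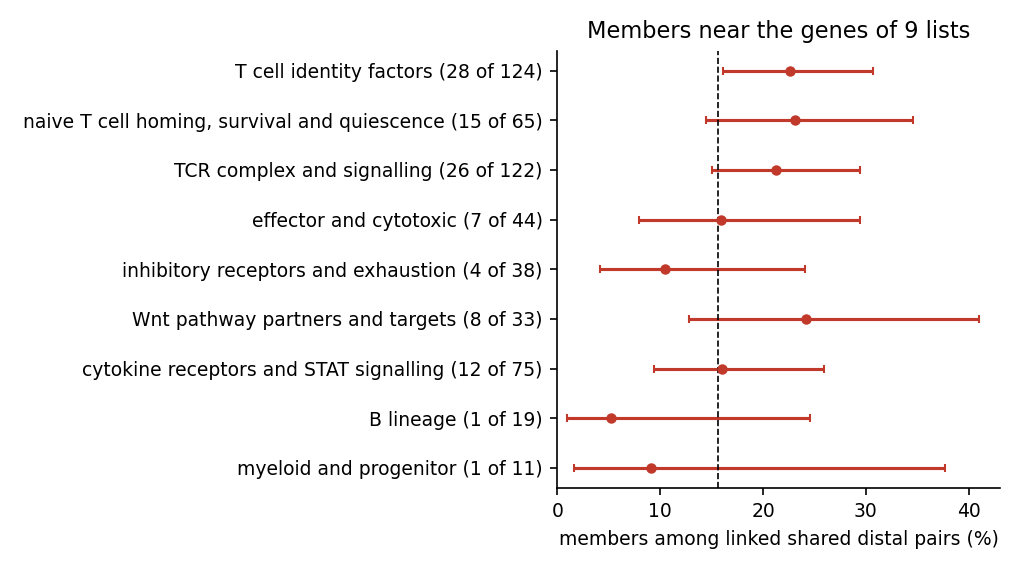
The x axis gives the percentage of members among the shared distal pairs linked to the genes of each of 9 lists, with the counts in the labels, 95% Wilson intervals as bars and the share over all shared distal pairs (15.6%) as a dashed line. The points for T cell identity, homing, receptor signalling and Wnt genes lie between 21.3% and 24.2%, and every interval except that of T cell identity factors includes the dashed line.

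The study also lists genes whose RNA differed between these genotypes, of which only the names were used, and 97.3% and 96.2% of the names were found in the annotation. A link to a gene lower in dKO was found for 81 of the 1768 sites (4.58%, 3.70–5.66%), for 2.56% of stable pairs (2.25–2.92%) and for 1.63% of pairs ranking higher in dKO (0.993–2.68%). A link to a gene higher in dKO was found for 63 sites (3.56%, 2.80–4.53%), for 4.39% of stable pairs (3.97–4.84%) and for 6.43% of pairs ranking higher in dKO (5.02–8.20%). The sites ranking higher in WT were thus more often near genes with less RNA in dKO than the stable pairs were, while for genes with more RNA in dKO the interval overlapped that of stable pairs. The gene lists come from cells of the same genotypes and are not independent evidence of direction.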

How the data were processed

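DNase-seq of naïve CD8+ T cells was deposited as 1 peak list for WT (3 replicates pooled by the authors) and 1 for dKO (2 replicates pooled). Per the study's methods, cells were digested with DNase I for 5 min, reads were aligned to mm9 with Bowtie2 (version 2.2.5 in the submitters' processing notes) and those with mapping quality above 10 were kept. Per the file headers, the authors called peaks with MACS2 2.1.1.20160309 in paired-end mode at p 1e-05, without a control library. Pileup, as deposited, is the signal at the summit in fragments and is not scaled to depth, as all its values were whole numbers. Fold enrichment, as deposited, is a ratio of pileup to local background of the same pool, and the deposited −log10 p and −log10 q are the authors' MACS2 tests of the summit against that background. The headers name 2 input files per pool and give exactly 50.0% of the fragments as kept after filtering (83923734 of 167847468 for WT, 62242963 of 124485926 for dKO). The kept numbers were used as depth.

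Peaks, pairs and percentiles (ties averaged) were computed with Python 3.11.15, numpy 2.4.6, pandas 2.3.3 and scipy 1.17.1. TSSs and genes came from the gencode annotation of mm9, and sequences from that genome with pysam 0.24.0, searched for 11 factor sequences on both strands of the 201 bp around each WT summit. Depth-scaled ratios have exact conditional binomial intervals and shares have Wilson intervals. The intervals treat sites as independent and cover neither mice nor libraries. Pairing and motif search were tested on simulated lists. The sites and the gene lists were chosen with earlier results of these data known. Named sites were the 10 with the largest gap, the 10 with the highest WT pileup, the 3 members just inside and the 3 pairs just outside the threshold, the members of the 5 genes with most members, up to 4 linked members of each gene list, and the printed sequences. Some sites that this rule names are not reported here. The counts around deleted genes, the neighbours, the runs, the fold enrichment exceptions and the rankings of named sites were added after the values were seen. Of the study's supplementary lists, only gene names and region coordinates were used. A further Wnt member, *Tcf7l2*, was named after its values were seen.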

Additional observations from a re-analysis of the deposited data

Results flagged for a closer look

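On the X chromosome, which the selection leaves out, 27 of 162 shared distal pairs had a WT percentile 20 or more points above the dKO percentile (16.7%, Wilson interval 11.7–23.2%). This interval holds the 15.6% found over the autosomal pairs, so that the share is not set apart from the background. It is given because these pairs lie outside the sites compared. A further 11 of these pairs had the opposite gap, and 3 of the 27 held the Tcf/Lef core within 100 bp of the WT summit. The mice were of both sexes and their mix in each pool was not used here.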

How the results depend on the processing

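No paired analysis was possible because both lists hold pools, and for the same reason leaving out a replicate could not be run. The number of sites stayed within 1.5 times of 1768 in 9 of 10 alternatives and was 767 at a gap of 30 points. The share with the Tcf/Lef core was 5.85% at a gap of 15 points, 9.91% at 30 points, 3.28% in a window of 50 bp each side and 8.26% in the whole WT peak. In the last 2, stable pairs had 1.35% and 3.27%. The median log2 ratio was 0.62 with fold enrichment ranked, 0.65 with only peaks of fold enrichment of at least 4 and q under 0.05, 0.66 with percentiles among the pairs alone, 0.53 and 0.85 at gaps of 15 and 30 points, and 0.59 with the median ratio of all pairs set to 0. The share inside gene bodies was 48.3% with fold enrichment ranked and 48.0% for summits over 5000 bp from every TSS (main value 51.2%). The cause of these changes was not tested, apart from the thresholds and windows, which change the sites or bases counted.

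Membership and the balance of directions depended on the ranking. Ranking fold enrichment kept 1378 of the 1768 sites (77.9%), and ranking among the shared distal pairs alone kept 1505 (85.1%). In the latter, 1526 pairs ranked higher in WT and 1575 in dKO, whereas the full lists gave 1768 and 918. Ranking among the pairs alone gives both genotypes the same mean percentile, so it cannot decide which direction is commoner. The share with the core was then 7.34%, against 3.03% of stable pairs. At the depth of a single site, 46.9% of the sites had a counting interval above 1, on the same pileups that chose them.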

Other observations

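The sites ranking higher in WT were also counted in super enhancers prepotent in 1 genotype, a comparison chosen after the data were seen. The regions used are only those that the study linked to differentially expressed or lineage genes, not all its prepotent super enhancers. A summit lay in 1 of the 49 such regions prepotent in WT for 73 of the 1768 sites (4.13%, Wilson interval 3.30–5.16%), for 2.08% of stable pairs (1.80–2.40%) and for 1.63% of pairs ranking higher in dKO (0.993–2.68%). In the 88 such regions prepotent in dKO lay 78 of the sites (4.41%, 3.55–5.47%), 5.16% of stable pairs (4.71–5.64%) and 9.80% of pairs ranking higher in dKO (8.04–11.9%). The study chose these regions with H3K27ac and RNA data of the same genotypes, so they are not independent evidence of direction.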
